A study of Oryza sativa with 5 samples.

Results

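Histone deacetylases remove acetyl groups from lysines in histone tails, a change usually associated with tighter chromatin and lower transcription, and histone acetyltransferases add them back. Plants hold 3 kinds of deacetylase. RPD3-type enzymes are zinc-dependent homologs of a yeast protein, sirtuins need NAD, and HD2 enzymes occur in plants and not in animals and were first found in maize. In rice the HD2 genes are OsHDT1 and OsHDT2. The members described here were a list of 10 loci: the 2 HD2 genes, 6 loci of the RPD3 type and 2 of the sirtuin type. Of these, 9 had rows among the 22546 genes of the tables used, and LOC_Os02g12380, an RPD3-type locus, was not analysed here.

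The study asked how the level of OsHDT1 bears on gene expression in a rice hybrid. FU was the hybrid Shanyou 63 (SY63) that over-expressed OsHDT1, and the sample labels give it the code FV. FR was SY63 that carried an OsHDT1 RNAi construct. SY63 itself was the hybrid without a construct, and its indica parents were Minghui 63 (MH63) and Zhenshan 97 (ZS97). The over-expression construct held the full cDNA behind the maize ubiquitin promoter and the RNAi construct a cDNA fragment behind a cauliflower mosaic virus promoter, both promoters being active in most tissues. Both constructs were placed in MH63, and pollen of those plants was used on ZS97, so that FU and FR were hybrids of a transgenic MH63. All seedlings were 15 days old and grew with 15 h of light at 30 °C and 9 h of darkness at 25 °C. The study used several transgenic lines and describes OsHDT1 as rhythmic over the day. The seedlings for these libraries were all harvested at the same hour of the afternoon. The line behind each library is not given in the sources used here, and its part in the values was not tested.

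One library was made per genotype, so no difference below has a replicate check. The tests set 1 library against another rather than genotypes, and intervals cover counting error only. NlaIII cuts cDNA at CATG, and a tag beside the cut nearest the 3′ end is read, so that tags count transcripts with no correction for length. Levels can be set beside each other between genes only with care. Tags shared by several genes were removed, and the indica parents may differ from the reference at a tag. TPM here is the tag count of a gene scaled to a common total of clean tags, as the authors gave it. The libraries held 4821637 to 5022081 clean tags, of which 69.5% to 70.8% lay on genes in 4 libraries and 73.9% in MH63, and 3 tags, the limit that a count of 0 allows, were 0.597 to 0.622 TPM. The 17 genes described as chlorophyll A-B binding proteins, which mark leaf cells, summed to 13278 TPM in FU, 10928 in FR, 14174 in SY63, 5003 in MH63 and 14796 in ZS97. MH63 stood apart in that list, and 10 to 13 of its genes reached 100 TPM in each library. In whole seedlings fewer cells of a type and less RNA per cell cannot be told apart.

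A gene was called where the false discovery rate (FDR) of Audic and Claverie's exact test for tag counts, taken 2-sided and adjusted by the Benjamini-Hochberg method over all genes with a tag in either library, was at most 0.001 and the absolute log2 ratio at least 1. All ratios have the first-named library on top, and intervals are 95% exact intervals. FU and FR were both set against the same SY63 library.

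The primers that made the constructs mark the ends of the OsHDT1 fragments cloned for FU and FR. They are designed oligonucleotides from the study, 5′ to 3′, with added restriction sites in capitals and OsHDT1 bases in lower case.
HDT1 forward: GGTACCccgattccgatggagttctg
HDT1 reverse: GGATCCtcacttggcggggtgcttgg
RNAi forward: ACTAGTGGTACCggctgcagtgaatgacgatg
RNAi reverse: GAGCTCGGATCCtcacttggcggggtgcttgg
The reverse primers share their last 26 bases, and on the sense strand their gene part ends in the stop codon TGA, so that both amplified fragments ended at the same place. None of the 4 primers holds CATG. The OsHDT1 counts include any tags of the transgene or the hairpin transcript, which were not separated from those of the resident gene.

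OsHDT1 (LOC_Os05g51830), described in the tables as a C2H2 zinc finger protein, was the member that differed most between libraries. It had 7590 tags in FU, 142 in FR, 428 in SY63, 2633 in MH63 and 304 in ZS97, which were 1574, 28.3, 88.1, 524 and 61.3 TPM in that order of libraries. The order from high to low was FU, MH63, SY63, ZS97 and FR, and every neighbour in it differed beyond counting error. FU exceeded MH63 3.0-fold (2.87 to 3.14), MH63 exceeded SY63 5.95-fold (5.37 to 6.61), SY63 exceeded ZS97 1.44-fold (1.24 to 1.67) and ZS97 exceeded FR 2.16-fold (1.77 to 2.66). FU was thus above and FR below both parents and SY63, and FU exceeded FR 55.6-fold (47.1 to 66.1). The intervals of the ratio left out 1 in all 10 pairs of libraries. By level OsHDT1 was the 30th gene from the top in FU, the 4503rd in FR, the 1255th in SY63, the 128th in MH63 and the 2024th in ZS97, of 19041 to 20170 genes with a tag.

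**Figure D1:**
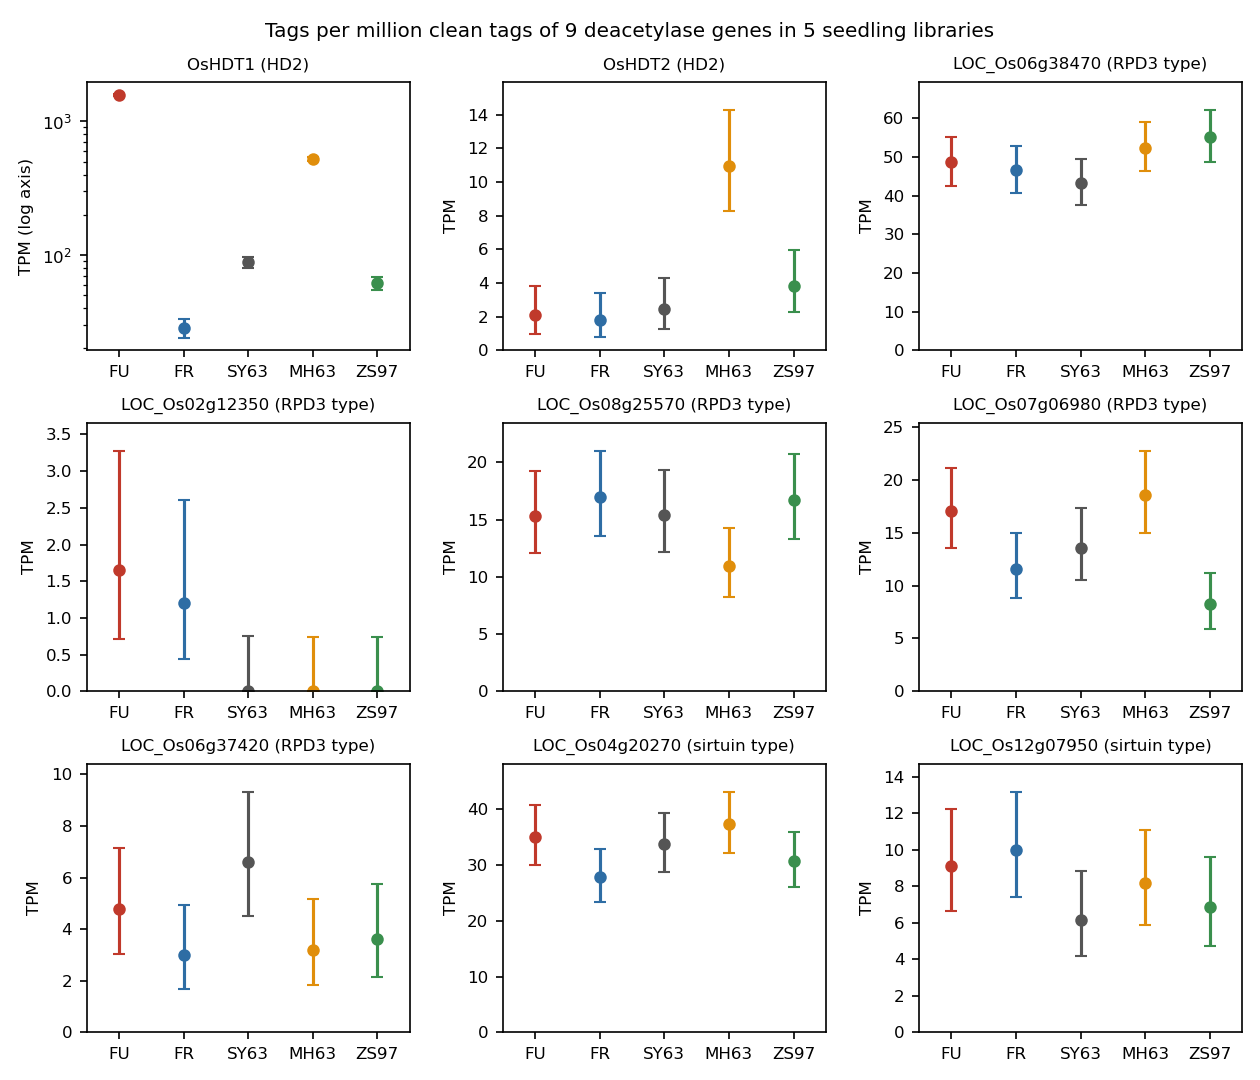
Level of each of the 9 members, in TPM, in the libraries FU, FR, SY63, MH63 and ZS97, with 95% Poisson intervals for counting error and 1 library per genotype. OsHDT1 has a log axis and spans 28.3 to 1574 TPM, whereas the other axes start at 0 and the points of LOC_Os06g38470 lie between 43.2 and 55.1 TPM.

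OsHDT2 (LOC_Os01g68104), the other HD2 gene, was scarce. It had 10 tags in FU, 9 in FR, 12 in SY63, 55 in MH63 and 19 in ZS97, or 2.07, 1.80, 2.47, 11.0 and 3.83 TPM in that order. MH63 was the high library, at 2.86-fold over ZS97 (1.67 to 5.10), and no other pair of neighbours in the order differed beyond counting error. The 3 hybrids lay within 1.38-fold of each other and all below both parents, although SY63 and ZS97 did not differ beyond counting error. OsHDT1 supplied 99.9% of the HD2 tags in FU, 94.0% in FR, 97.3% in SY63, 98.0% in MH63 and 94.1% in ZS97, so it had most HD2 tags even in the RNAi hybrid. Its tags may include those of the transgene in FU and of the hairpin in FR, and the levels of these 2 genes compare only with care.

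Among the 5 listed RPD3-type loci with rows, LOC_Os06g38470, described as histone deacetylase 19, was the most abundant. In Arabidopsis the enzyme of that name acts with corepressors to silence genes. The rice locus had 234 tags in FU, 233 in FR, 210 in SY63, 263 in MH63 and 273 in ZS97. Ranked by level, no neighbours differed beyond counting error, but SY63, the lowest, was below MH63 (0.826-fold, 0.685 to 0.994) and below ZS97 (0.785-fold, 0.653 to 0.943), the 2 of 10 pairs whose interval left out 1. These intervals are not adjusted for the number of pairs. The log2 ratio of SY63 to MH63 was -0.28, but -0.11 with edgeR's TMM totals, and that to ZS97 -0.35 and -0.36. No intervals were made with TMM. The highest level of the locus was 1.27-fold its lowest, against 55.6-fold for OsHDT1. It made up 55.6% of the tags of these 5 loci in FU, 58.7% in FR, 54.8% in SY63, 61.6% in MH63 and 65.8% in ZS97.

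The other listed RPD3-type loci were lower. LOC_Os08g25570 had 74 tags in FU, 85 in FR, 75 in SY63, 55 in MH63 and 83 in ZS97, with MH63 the low library. LOC_Os07g06980 had 82 tags in FU, 58 in FR, 66 in SY63, 93 in MH63 and 41 in ZS97, a 2.24-fold range with MH63 at the top and ZS97 at the bottom. LOC_Os06g37420 had 23 tags in FU, 15 in FR, 32 in SY63, 16 in MH63 and 18 in ZS97. When each of these 3 loci was ranked by level, no neighbours differed beyond counting error, but libraries farther apart did in 2 of 10 pairs for LOC_Os08g25570, 5 for LOC_Os07g06980 and 2 for LOC_Os06g37420. In FU against FR, LOC_Os07g06980 was 1.47-fold higher (1.04 to 2.09).

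LOC_Os02g12350 had 8 tags in FU and 6 in FR, against 0 in SY63, MH63 and ZS97. Its counts were at least 2.69-fold higher in FU and at least 1.94-fold higher in FR than the limit of 3 tags in SY63. With the counting error of the 8 and 6 tags included, the 95% interval of the ratio to SY63 began at 1.72-fold in FU and 1.14-fold in FR. Neither difference was called, with FDR 0.0396 in FU and 0.154 in FR, and both rest on the same SY63 library. The limit of 3 tags is 0.618 TPM in SY63, and the 2-sided Poisson interval drawn for SY63 reaches 0.759 TPM.

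Of the sirtuin-type loci, both described as Sir2 family regulators, LOC_Os04g20270 was the more abundant. It had 169 tags in FU, 139 in FR, 164 in SY63, 187 in MH63 and 152 in ZS97, a 1.34-fold range. LOC_Os12g07950 had 44 tags in FU, 50 in FR, 30 in SY63, 41 in MH63 and 34 in ZS97, a 1.62-fold range. Ranked by level, no neighbours differed beyond counting error at either locus. Of pairs farther apart, LOC_Os04g20270 was 1.26-fold higher in FU than in FR (1.00 to 1.59, the lower end just above 1) and 0.745-fold in FR against MH63 (0.594 to 0.933). LOC_Os12g07950 was 1.62-fold higher in FR than in SY63 (1.01 to 2.63). These intervals are not adjusted for the number of pairs.

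The sum over the 9 members followed OsHDT1, and the shares below are of their tags alone. Further loci described as deacetylases are left out of them. Of those, LOC_Os12g08220 had 386 tags in FR and 533 in ZS97, more than OsHDT1, but fewer than OsHDT1 in FU, SY63 and MH63. OsHDT1 held 92.2% of all member tags in FU (91.6 to 92.7), 19.3% in FR (16.5 to 22.3), 42.1% in SY63 (39.0 to 45.2), 78.8% in MH63 (77.3 to 80.1) and 32.9% in ZS97 (29.9 to 36.0; exact Clopper-Pearson intervals). In FR the RPD3-type loci held the larger share, at 53.9%, and the sirtuin-type loci held 25.6%. The RPD3-type share was also above that of OsHDT1 in ZS97, at 44.9%. The remaining 8 members summed to 134 TPM in FU, 119 in FR, 121 in SY63, 141 in MH63 and 125 in ZS97. Their sum in FU was 1.10-fold that of SY63 (0.983 to 1.23), and in FR 0.979-fold (0.872 to 1.10). Both intervals held 1. Those of 2 comparisons with MH63 did not: the sum in SY63 was 0.858-fold that of MH63 (0.768 to 0.958), and in MH63 it was 1.13-fold that of ZS97 (1.01 to 1.26). The median log2 ratio of all genes was also shifted, at -0.17 in SY63 against MH63 and 0.20 in MH63 against ZS97. With edgeR's TMM totals these medians lay 0.16 higher and 0.18 lower, and the sums were not recomputed with such totals.

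**Figure D2:**
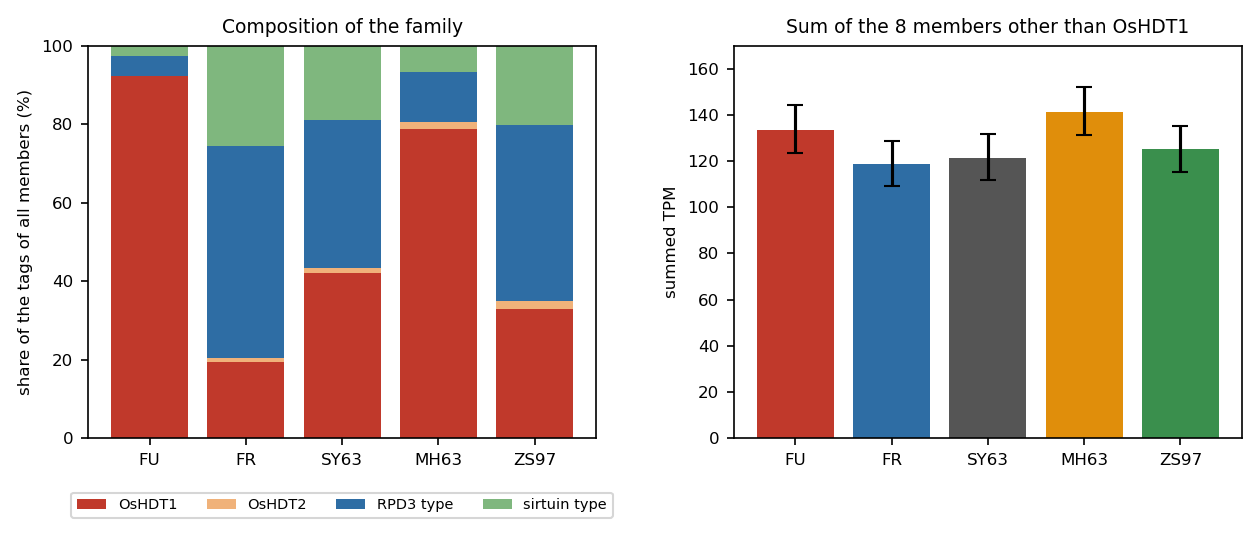
Left, share of the tags of all 9 members held by OsHDT1, OsHDT2, the RPD3-type and the sirtuin-type loci, in percent, in each of 5 libraries. Right, summed TPM of the 8 members other than OsHDT1 with 95% Poisson intervals. The OsHDT1 share is 92.2% in FU and 19.3% in FR, while the summed level of the others lies between 119 and 141 TPM.

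Over-expression was compared with the hybrid that carried no construct. OsHDT1 was the 1 member of 9 called in FU against SY63, as higher, where 2.19% of all genes tested were called higher and 0.812% lower. Its log2 ratio was 4.16 (4.02 to 4.30), with an FDR of 0 to the precision of the computation, and it was the 1st by absolute ratio among the 12826 genes that reached 20 tags in FU and in SY63. No other member was called. Apart from LOC_Os02g12350, which has no determined ratio, the largest was 0.56 (-0.14 to 1.28), for LOC_Os12g07950. The median log2 ratio was 0.11 over the 8 members with at least 20 tags in both libraries together, against 0.05 over all such genes. OsHDT1 itself is among those 8, and the ratios of the others ran from -0.47 (LOC_Os06g37420) to 0.56. For OsHDT2 the ratio was -0.25 (-1.62 to 1.08), an interval that holds changes of more than 2-fold either way.

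In the RNAi hybrid OsHDT1 was again the 1 called member of 9, and it was lower than in SY63. Of all genes tested in FR against SY63, 0.576% were called lower and 0.585% higher. The log2 ratio of OsHDT1 was -1.64 (-1.92 to -1.36, FDR 7.52e-34), which left it at 0.322-fold the SY63 level (0.264 to 0.390), and made it the 17th of 12786 genes by absolute ratio. The median log2 ratio was -0.26 over 8 members, OsHDT1 included, against -0.04 over all genes of that tag minimum. The call of OsHDT1 was lost in edgeR's exact test with an assumed coefficient of variation of 0.2 between plants, where 4 of all genes were called. LOC_Os06g37420 had a ratio of -1.14 (-2.13 to -0.21) and was not called (FDR 0.0653). LOC_Os12g07950 had a ratio of 0.69 (0.01 to 1.40) and was not called either (FDR 0.19). OsHDT2, the other HD2 gene, had a ratio of -0.46 (-1.89 to 0.91), so a change of the size seen for OsHDT1 was not detectable at 9 and 12 tags.

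**Figure D3:**
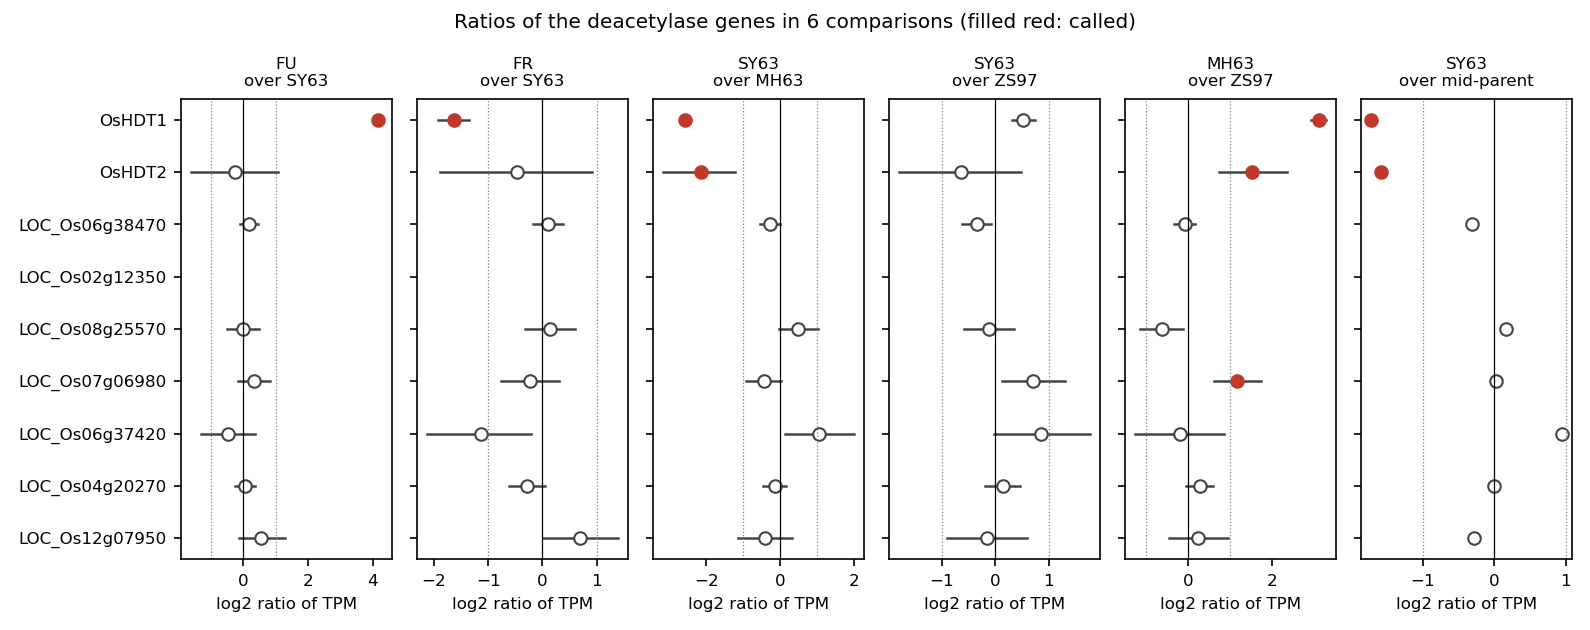
Log2 ratio of TPM for each member in 6 comparisons, the first-named library over the second, with 95% exact intervals in the 5 pairs of libraries, filled red where called and dotted lines at -1 and 1. The mid-parent panel has points without intervals, the x axes differ between panels, and LOC_Os02g12350 has no point because it had no tags in SY63, MH63 or ZS97. OsHDT1 is called in 5 panels, at 4.16 in FU over SY63 and at -1.64 in FR over SY63.

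The parents differed in 3 members. In MH63 against ZS97, OsHDT1, OsHDT2 and LOC_Os07g06980 were called higher of 8 members with a tag, where 10.7% of all genes were called higher in MH63 and 6.86% lower. The log2 ratio of OsHDT1 was 3.10 (2.92 to 3.27), the 38th by absolute ratio of 12141 genes that reached 20 tags in each. OsHDT2 had a ratio of 1.51 (0.74 to 2.35, FDR 0.000178) and LOC_Os07g06980 a ratio of 1.16 (0.62 to 1.73, FDR 5.25e-05). Both of these calls ended with edgeR's TMM or DESeq2's size factors, which left OsHDT1 as the only member called. The median of all genes was 0.20 in this comparison and lay 0.18 lower with TMM, and the ratio of OsHDT2 was then 1.34 and that of LOC_Os07g06980 0.98. The median over 8 members, OsHDT1 included, was 0.27. LOC_Os08g25570 had the other sign, at -0.61 (-1.13 to -0.10), and was not called (FDR 0.0335). The chlorophyll A-B binding genes summed to 5003 TPM in MH63 against 14796 in ZS97, and the part of that difference in these results was not tested.

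The hybrid was then set against each parent. Against MH63, OsHDT1 and OsHDT2 were called lower in SY63, 2 of 8 members, where 9.37% of all genes were called lower and 7.10% higher. The log2 ratio was -2.57 (-2.72 to -2.42) for OsHDT1 and -2.15 (-3.19 to -1.23, FDR 8.13e-07) for OsHDT2. In separate quantitative RT-PCR assays over the day, under long and short days, the study saw no clear difference in OsHDT1 transcript between MH63 and SY63. It also saw none in OsHDT1 protein between SY63 and either parent, in leaves of older plants grown under natural long days. The libraries were of seedlings 15 days old harvested at the same hour, so these assays are not of like material. Over 8 members, OsHDT1 included, the median was -0.34. LOC_Os06g37420 was at 1.05 (0.14 to 2.01) and was not called (FDR 0.0494). The median of all genes was -0.17 and lay 0.16 higher with TMM, under which both HD2 genes were still called. In edgeR's exact test with an assumed coefficient of variation of 0.2 the call of OsHDT2 was lost and that of OsHDT1 held. Over all genes 693 were called there. Beside these ratios the chlorophyll A-B binding genes summed to 14174 TPM in SY63 against 5003 in MH63, and their part was not tested.

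Against ZS97 none of 8 members was called in SY63, where 2.88% of all genes were called higher and 1.07% lower. OsHDT1 had a log2 ratio of 0.52 (0.31 to 0.74, FDR 2.19e-05), which was past the FDR but under the ratio of the call. LOC_Os06g38470 was at -0.35 (-0.62 to -0.08, FDR 0.0405) and LOC_Os07g06980 at 0.72 (0.13 to 1.32, FDR 0.0638). The median was 0.01 over the members and over all genes. This comparison does not involve MH63, and the chlorophyll A-B binding genes were at 14174 TPM in SY63 and 14796 in ZS97.

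**Figure D4:**
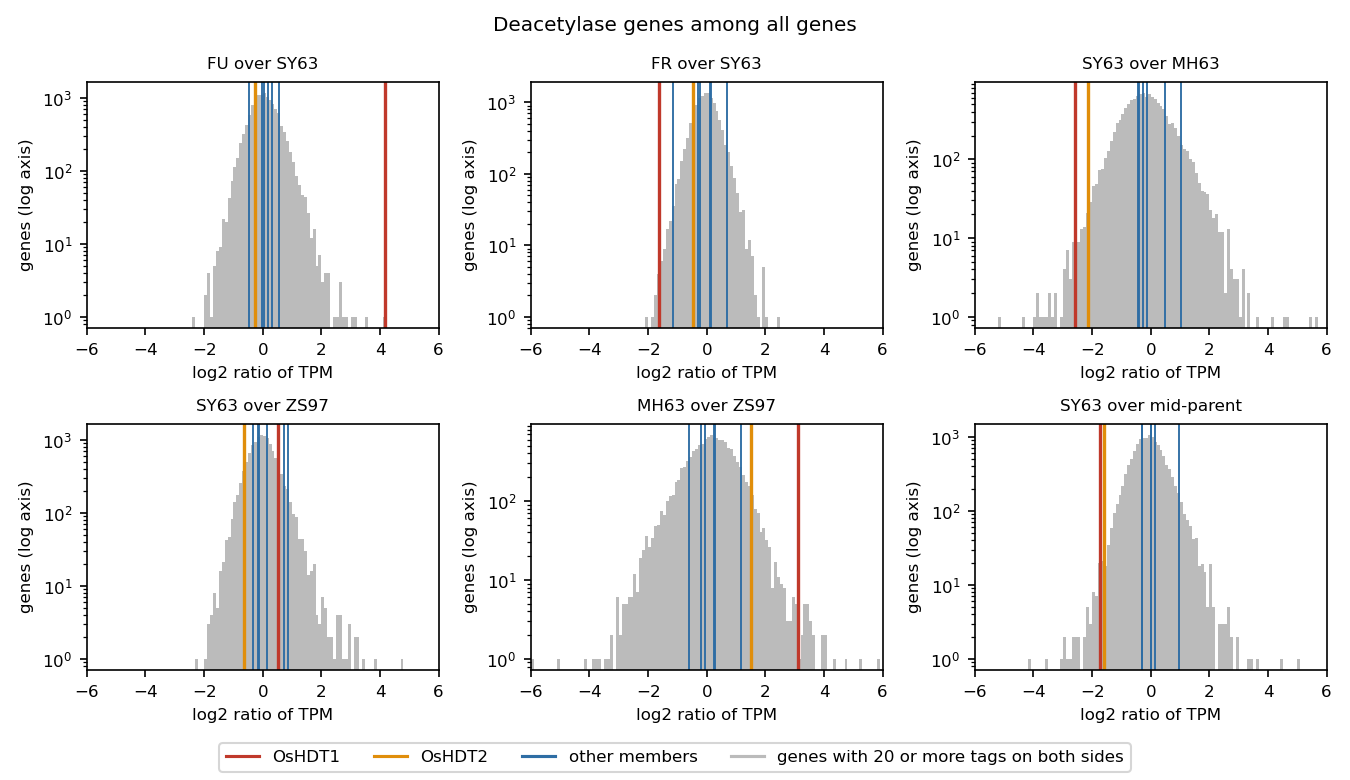
Histograms of the log2 ratio of TPM over all genes with at least 20 tags on both sides (grey, log axis of gene number), in 6 comparisons, with vertical lines at the ratios of OsHDT1 (red), OsHDT2 (orange) and the other members (blue). The OsHDT1 line stands at 4.16 in FU over SY63, at the edge of all genes, and at 0.52 in SY63 over ZS97, inside the bulk.

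The mid-parent, the mean level of the parents, is the level an additive hybrid would have. OsHDT1 was at 88.1 TPM in SY63 against a mid-parent of 293 TPM, or 30.1% of it, and it lay 5.79% of the way from ZS97 to MH63. OsHDT2 was at 2.47 TPM in SY63 against a mid-parent of 7.39 TPM. Both HD2 genes were called lower than the mid-parent, 2 of 8 members, where 3.49% of all genes were called lower and 2.85% higher. The log2 ratio was -1.73 (FDR 5.89e-156) for OsHDT1 and -1.58 (FDR 0.000604) for OsHDT2. Against the geometric mean of the parents the ratio of OsHDT1 was -1.02, still called but close to the minimum ratio, and that of OsHDT2 -1.39. The call of OsHDT2 ended with TMM and with DESeq2's size factors, at -1.47 and -1.49. Neither HD2 call held in edgeR's exact test with an assumed coefficient of variation of 0.2, where 228 of all genes were called. MH63, the library low in chlorophyll A-B binding genes, enters the mid-parent.

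None of the other members was called against the mid-parent. The median log2 ratio over 8 members, both HD2 genes included, was -0.15, against -0.10 over all genes. LOC_Os07g06980 was at 13.6 TPM in SY63 against 13.4, LOC_Os04g20270 at 33.8 against 33.9, and LOC_Os08g25570 at 15.4 against 13.8. LOC_Os06g38470 was below both parents in all 3 hybrids, at 48.5 TPM in FU, 46.5 in FR and 43.2 in SY63 against 52.4 in MH63 and 55.1 in ZS97. Its ratio in SY63 to the mid-parent was -0.31 (FDR 0.0261), which was not called. LOC_Os06g37420 was at 6.59 TPM in SY63 against a mid-parent of 3.41, a log2 ratio of 0.95 that was not called (FDR 0.0377). Of 9 members, SY63 had 1 above both parents, 3 below both and 5 between or equal, FU had 4 above, 2 below and 3 between, and FR had 3 above, 5 below and 1 between. These positions rank the levels alone, whatever their counting error.

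Other genes of histone acetylation were picked out by terms in their descriptions. The 8 further loci described as deacetylases or deacetylase complex subunits include LOC_Os12g08220, which had 251 tags in FU, 386 in FR, 422 in SY63, 191 in MH63 and 533 in ZS97. MH63 was its low library. It was called higher in SY63 than in MH63 (log2 ratio 1.19, 0.94 to 1.45, FDR 2.00e-21) and lower in MH63 than in ZS97 (-1.50, -1.75 to -1.26, FDR 6.88e-38). LOC_Os07g41090 had 110 tags in FR against 51 in SY63 and was called (1.06, 0.57 to 1.57, FDR 0.000242), the 1 gene of the 8 called in FR, where 0.585% of all genes were called higher. At 0.997 on the log2(TPM + 1) scale its ratio was just under the ratio of the call. LOC_Os04g33480 was called higher in MH63 than in ZS97, with 84 tags against 40 (1.05, 0.49 to 1.63, FDR 0.000494), a call that ended with TMM at 0.87. LOC_Os05g36930 was named after its values were seen: it had 3 tags in FU, 2 in FR, 0 in SY63, 16 in MH63 and 0 in ZS97, and was called in both comparisons of MH63. In all, 1 of the 8 was called higher and 1 lower in SY63 against MH63, where 7.10% and 9.37% of all genes were, and 2 of 7 were called higher and 1 lower in MH63 against ZS97, where 10.7% and 6.86% were. None of these calls of the further deacetylases held in edgeR's exact test at an assumed coefficient of variation of 0.2. There 4 of all genes were called in FR against SY63, 693 in SY63 against MH63 and 948 in MH63 against ZS97. None of the 8 was called in FU against SY63, in SY63 against ZS97 or against the mid-parent. Of all genes, 2.19% were called higher and 0.812% lower in the first of these, 2.88% and 1.07% in the next, and 2.85% and 3.49% against the mid-parent.

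Histone acetyltransferases oppose the deacetylases. None of 8 loci matched by terms for such enzymes was called in any of the 6 comparisons, and their ratios lay between -0.78 and 0.98. Of all genes, 0.576% to 10.7% were called per direction in these comparisons. With 8 loci, an absence of calls does not stand out from those shares. The terms also match 3 loci described only as GCN5-related N-acetyltransferases, whose substrates may not be histones, and LOC_Os06g43790, described as subunit 1 of the transcription factor TFIID and not as an acetyltransferase. Neither of 2 loci described as partners in corepressor complexes, the SAP18 subunit LOC_Os02g02960 and the retinoblastoma-binding protein-like LOC_Os03g10990, was called. These 2 loci are too few to set against the shares over all genes. LOC_Os02g02960 also counts among the 8 further deacetylase loci.

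Bromodomain proteins bind the acetylated lysines that deacetylases remove. Of 18 loci with the term in their description, 2 of them described only as bromodomain associated (LOC_Os03g40650 and LOC_Os12g38620), none was called in FU or FR against SY63 or in SY63 against ZS97. Of all genes, 2.19% were called higher and 0.812% lower in FU, 0.585% and 0.576% in FR, and 2.88% and 1.07% in SY63 against ZS97. In MH63 against ZS97, where 10.7% of all genes were called higher, 3 of 16 were, LOC_Os04g53170 (252 tags in MH63 against 34, log2 ratio 2.87), LOC_Os06g04640 (179 against 74, 1.26) and LOC_Os09g33980 (172 against 72, 1.24). In SY63 against MH63, where 9.37% of all genes were called lower, 3 of 17 were, LOC_Os04g53170 (62 tags in SY63 against 252, -1.97), LOC_Os09g33980 (68 against 172, -1.29) and LOC_Os07g32420 (280 against 668, -1.21). LOC_Os04g53170 was also called lower in SY63 than the mid-parent, at -1.16, the 1 of 17 called there, where 3.49% of all genes were called lower. In edgeR's exact test at an assumed coefficient of variation of 0.2, LOC_Os04g53170 was the 1 bromodomain locus still called. This held in SY63 against MH63, where 693 of all genes were called, and between the parents, where 948 were. Beside these calls the chlorophyll A-B binding genes summed to 5003 TPM in MH63, against 14796 in ZS97 and 14174 in SY63, and their part was not tested. LOC_Os04g53170 had 105 tags in FU and 106 in FR, both between the parents.

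**Figure D5:**
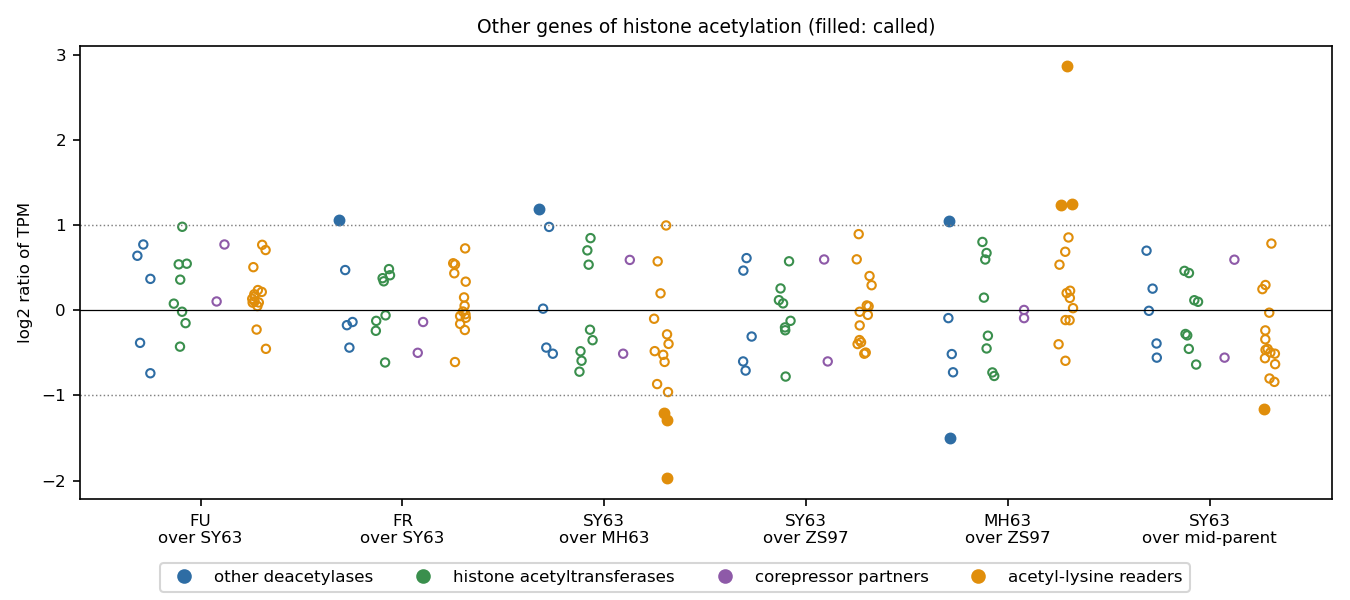
Log2 ratio of TPM, first-named over second, of the loci described as other deacetylases, histone acetyltransferases, corepressor partners and acetyl-lysine readers (bromodomain proteins) in 6 comparisons, for loci with at least 20 tags in both sides together and over 3 tags on each, filled where called. Called points are those of LOC_Os07g41090 at 1.06 in FR over SY63 and, in the comparisons with MH63, LOC_Os12g08220, LOC_Os04g33480 and 4 bromodomain loci.

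The 5 genes whose level followed OsHDT1 most closely were found by Pearson's r of log2(TPM + 1) over the 5 libraries, among 1640 genes with at least 20 tags in the highest library and a log2 range of at least 2. They were LOC_Os07g34520 (isocitrate lyase, an enzyme of the glyoxylate cycle; r = 0.985), LOC_Os08g37210 (patatin; 0.980), LOC_Os06g50930 (rhodanese-like domain; 0.980), LOC_Os03g28980 (WD40-like repeat; 0.968) and LOC_Os03g08284 (expressed protein; 0.960). LOC_Os07g34520 had 73 tags in FU, 4 in FR, 8 in SY63, 48 in MH63 and 11 in ZS97. LOC_Os06g50930 had 120 tags in FU, 22 in FR, 43 in SY63, 75 in MH63 and 42 in ZS97, the order of OsHDT1 in all 5 libraries. The place of SY63 above ZS97 rests there on 43 against 42 tags. The others were scarcer. LOC_Os08g37210 had 29 tags in FU, 0 in FR, 3 in SY63, 20 in MH63 and 0 in ZS97. In the same order LOC_Os03g28980 had 23, 0, 5, 14 and 0 tags and LOC_Os03g08284 51, 0, 0, 13 and 0. Both of these reached 20 tags in FU alone, where OsHDT1 was highest. With 5 libraries and so many genes searched the r values describe likeness and carry no test, and the points share the libraries of OsHDT1.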

How the data were processed

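The tables that the authors deposited for pairs of libraries hold raw counts of unambiguous clean tags per gene and the authors' TPM, which are those counts scaled by all clean tags of the library. The authors matched tags to MSU rice cDNAs with at most 1 mismatch and removed tags of several genes, so that near-identical genes lose tags, and the indica parents may differ from the reference at a tag. The matching software is not given in the sources used here. The authors' log2 ratios, p-values and FDR were not used. A gene without a row in a pair of libraries was read as 0 tags there.

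Clean-tag totals were derived from counts and TPM to within 1 tag. A TPM of 0 was replaced by 0.01 in ratios. The mid-parent test set the SY63 count against the summed parents. With 1 library per genotype the quasi-likelihood fit of edgeR was not possible. The test was checked on simulated data. Alternatives were totals of tags on genes, TMM (edgeR 4.0.16), DESeq2 1.42.0 size factors, a minimum of 10 tags, a pseudocount of 1 TPM, an FDR of 0.05 with no minimum ratio, edgeR's exact test with assumed coefficients of variation of 0.2 and 0.4, a geometric mid-parent, and Spearman's rho. Python 3.11.15, SciPy 1.17.1 and R 4.3.3 were used.

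The members and lists were chosen with earlier results of these data known. Named genes were all 10 members, up to 4 called genes of each other list with the largest ratio and at least 20 tags in both libraries, and the 5 genes most like OsHDT1. Glutelin or prolamin, seed storage proteins, gave 1 gene, at 5.81 to 16.7 TPM in all libraries.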

Additional observations from a re-analysis of the deposited data

How the results depend on the processing

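No paired analysis was possible because there was 1 library per genotype. Of 200 log2 ratios of members recomputed with other totals, on the log2(TPM + 1) scale or with a geometric mid-parent, 188 kept direction and call, 6 kept direction and lost the call and 6 changed sign. All sign changes were of LOC_Os04g20270, which was never called: -0.0267 with TMM and -0.0120 with DESeq2's size factors in FU against SY63, 0.0224 with TMM in SY63 against MH63, and 0.0315 with totals on genes, 0.0720 with TMM and 0.0509 with DESeq2 against the mid-parent. TMM and DESeq2's size factors left 1 called member (OsHDT1) in MH63 against ZS97 and 1 against the mid-parent. With an FDR of 0.05 and no minimum ratio there were 2 called members in FU against SY63 (LOC_Os02g12350 added), where 4361 of 21314 genes were called. There were 2 in SY63 against ZS97 (OsHDT1 and LOC_Os06g38470), where 4491 of 20783 genes were. Against the mid-parent there were 4, where 6914 of 21504 genes were. The number was 3 in SY63 against MH63 (9229 of 20948 genes), 4 in MH63 against ZS97 (9183 of 20560) and 1 in FR against SY63 (2821 of 21024). With an assumed coefficient of variation of 0.2 the number was 0 in FR against SY63 and 0 against the mid-parent. It was 1 in FU against SY63, in SY63 against MH63 and in MH63 against ZS97 (OsHDT1 in each). Over all genes 4, 228, 36, 693 and 948 were called, in that order of comparisons. At 0.4 the number of called members was 0 in FU and FR against SY63, in SY63 against MH63 or the mid-parent, and in MH63 against ZS97. There 1, 0, 86, 15 and 194 genes were called over all genes, in that order of comparisons. These coefficients were assumed, as no spread between plants was measured. In calls over all genes, the share called higher was 60.1% with TMM against 73.0% in FU over SY63, 57.8% with TMM and 55.5% with DESeq2 against 43.1% in SY63 over MH63, 46.2% and 46.6% against 60.8% in MH63 over ZS97, and 55.2% with TMM and 60.5% with a geometric mid-parent against 45.0% in SY63 over the mid-parent. Among the 5 genes most like OsHDT1, 1 had a rho of 1 (LOC_Os06g50930, with 43 tags in SY63 and 42 in ZS97), as did 4 of all genes searched.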
